A study of Mus with 50 samples.

Results

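The genes described here are the cell cycle and DNA replication genes: cyclins and Cdk1, the transcription factors E2f1, E2f8 and Foxm1, the Mcm helicase and its loading factors, enzymes of nucleotide supply, and genes of mitosis. The list holds 36 genes, chosen by name, and 34 of them were measured among the 22180 genes of the array. Each gene was read from the probe set that carries its symbol alone, and from the one with the highest median where there were several, which was so for Rrm2 only. Ccne2 sits on a probe set shared with Ints8, and Ccnb1 was not analysed here. The samples were 50 livers, each from a different female mouse and each on 1 array. All mice came from a backcross of the C57 and FVB strains, all carried MMTV-Neu, a proto-oncogene under a viral promoter active mainly in breast epithelium, and breast cancer is listed for all of them as a comorbidity. The series describes the mice as extremes of an ageing grade, but the labels give no grade for any one mouse. All livers therefore formed 1 group without a control, and the results are levels in single livers and covariation over mice, each mouse being named by its animal number. The mouse ages are not given in the sources used here.

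Cells enter the cycle when cyclin D and then cyclin E partners push them out of G1, which frees the E2F factors to switch on replication genes. The Mcm proteins form the helicase that opens replication origins, Cdc6 and Cdt1 load it, and Pcna is the clamp that holds the polymerases on DNA. Once DNA is copied, Foxm1 and its partners raise the genes of mitosis, among them cyclin A2, the B cyclins, Cdk1, spindle motors and checkpoint kinases. Hepatocytes of the adult liver are mostly quiescent, whereas precursors of blood cells, activated lymphocytes and tumour cells divide. A bulk liver sample pools all of these, so more dividing cells and more transcript per cell cannot be told apart in any value that follows.

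Values are log2 signals after RMA normalisation, so a difference of 1 is a doubling of the signal. Array medians lay between 3.27 and 3.34, and the deposited values carry no detection call. The arrays of animals 64, 235 and 84 correlated less with the others than the rest did. The median correlation with the other arrays was 0.897 for animal 64 and 0.935 for animal 235; it was 0.946 for animal 84, 0.967 for animal 87 and between 0.963 and 0.988 for the other 46. Results over mice are given with and without animals 64 and 235, the lowest of these, and some also without animals 84 and 87. Alb, the serum albumin gene of hepatocytes, was at 13.34 in animal 64, 13.45 in animal 235 and between 13.20 and 13.54 in the other 48 livers. These values lie near the top of the array's range of 13.54, so they show hepatocyte RNA in every sample but could not show a partial loss of it. The labels' protocol for RNA isolation nevertheless names purified cell populations as its starting material.

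The cell cycle genes were among the more variable genes of these livers, and most of their spread came from 2 animals. The SD over the 50 livers had a median of 0.79 log2 for the 34 members, against 0.21 for all genes. It exceeded 0.5 in 32 of 34 members, against 8.66% of all genes. Over the 48 livers without animals 64 and 235 the median SD of the members was 0.39, against 0.20 for all genes. In these 48 livers 8 of 34 members had an SD above 0.5, against 5.31% of all genes, and they were Ccnd1, Ccna2, Ccnb2, Cdk1, E2f8, Rrm2, Mki67 and Top2a.

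In animal 64, genes of every step of the cycle were high together, with cyclin D1 the exception. Of the 34 members, 33 lay at least 1 log2 above the median of the other 48 livers, where 8.66% of all genes did so, and 33 lay above all 48, against 14.6% of all genes. The median difference of the members from the 48-liver median was 4.23 log2. The single liver has no replicate, so these differences carry no test.

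Among the cyclins, Ccna2, the cyclin of S and G2 phase, had a signal of 10.25 in animal 64, against a lowest of 3.41, a median of 4.22 and a highest of 6.54 in the 48 other livers. Ccnb2, a mitotic cyclin, was at 10.36 in animal 64, against 3.86, 4.47 and 6.73. These were differences of 6.03 and 5.89 log2 from the median, the widest among the members. Ccne1, the cyclin E that partners Cdk2 at the start of replication, was at 7.28 in animal 64 and between 3.61 and 4.90 in the 48, with a median of 4.03. Cdk1, the kinase that drives mitosis, was at 8.27 in animal 64 and between 3.32 and 5.20 in the 48, with a median of 3.98. Ccnd1, the cyclin D1 of G1 phase, ran the other way. It was at 6.27 in animal 64, 2.02 log2 under the median of 8.29, and only animals 257 and 89 were lower.

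The transcription factors were raised by unequal amounts in animal 64. E2f8, an atypical E2F that represses E2F targets, was at 9.12 in animal 64, against 3.3, 4.76 and 6.14 in the 48 as lowest, median and highest. Foxm1 was at 5.28 in animal 64, against 2.76, 3.06 and 3.45. E2f1, an activating E2F, showed the smallest positive difference of the members, with 5.13 in animal 64 and a median of 4.01, and animal 235 was slightly higher at 5.17. All 3 lay above the 48 other livers.

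All 9 replication genes were above the 48 other livers in animal 64, with a median difference of 4.38 log2. Mcm6, a helicase subunit, was at 8.98 in animal 64, against 3.25, 4.06 and 5.50 in the 48 as lowest, median and highest. Cdc6 was at 8.38 in animal 64, against 2.55, 2.87 and 3.90. Cdc6 had the widest difference of the class at 5.51 log2, and Pcna the narrowest at 3.28, from 10.25 in animal 64 against a median of 6.97. In nucleotide supply, Rrm1, the large subunit of ribonucleotide reductase, stood 4.98 log2 above the median at 10.24 in animal 64. Tk1, the thymidine salvage kinase, stood 2.0 above it at 8.16.

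The 14 mitosis genes differed by a median of 4.23 log2 in animal 64, close to the replication genes. Mki67, whose protein coats mitotic chromosomes and marks dividing cells, was at 11.13 in animal 64, against 4.27, 5.38 and 7.92 in the 48 as lowest, median and highest. Kif11, the motor that separates the spindle poles, was at 9.25 in animal 64, against 2.88, 3.37 and 4.83. Top2a, which untangles DNA before chromosomes part, was 5.49 log2 above the median, and Cdc20, which switches on the anaphase ubiquitin ligase, was the least raised of the class at 3.17. No member of this class overlapped the 48 in animal 64.

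**Figure D1:**
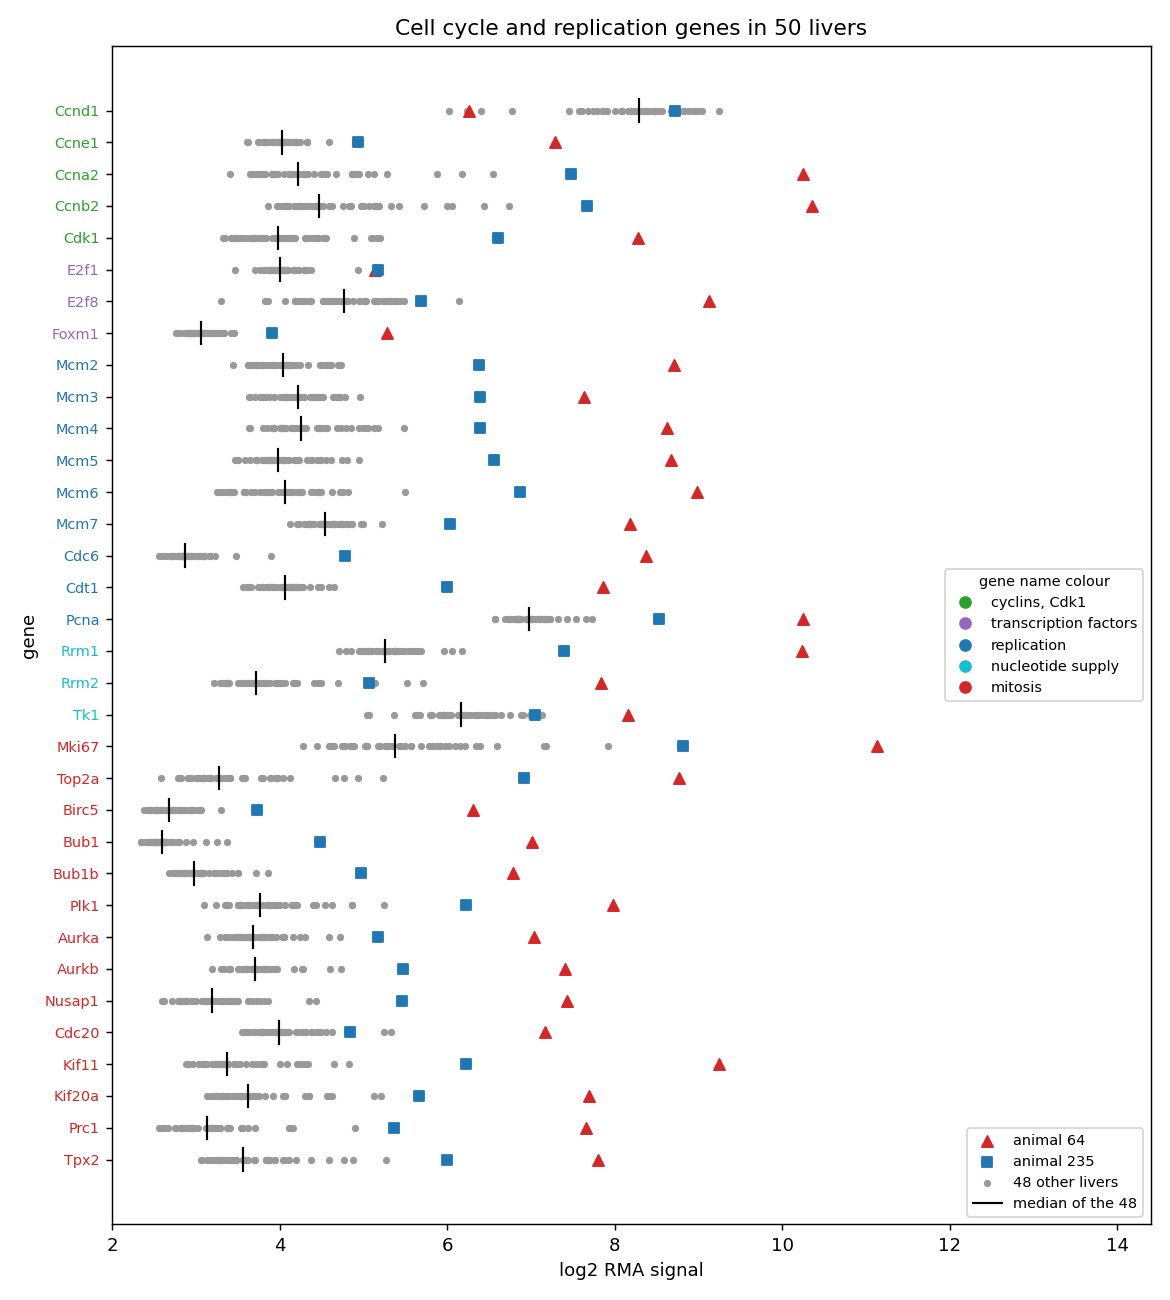
Log2 RMA signal of the 34 measured members (rows, names coloured by class) in animal 64 (red triangles), animal 235 (blue squares) and the 48 other livers (grey points, black bar at their median). Animal 64 lies right of all grey points for 33 genes, and for Ccnd1 it lies at 6.27, near the low end of the 48.

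Animal 235 showed most of the same genes at a smaller log2 distance. At least 1 log2 above the 48-liver median were 28 of 34 members, against 6.09% of all genes, and 0 lay at least 1 log2 below it, against 3.96% of all genes. Above all 48 other livers were 29 members, against 9.84% of all genes. The median difference was 2.02 log2. Top2a was at 6.92 in animal 235, Mki67 at 8.82, Ccna2 at 7.47 and Mcm6 at 6.87, which is 3.64, 3.44, 3.26 and 2.81 log2 above the 48-liver medians. The 6 members under the 1 log2 mark were Ccnd1 at 8.73, Ccne1 at 4.93, E2f8 at 5.68, Foxm1 at 3.91, Tk1 at 7.05 and Cdc20 at 4.84. Of these, Ccne1 and Foxm1 still lay above all 48, while Cdc20 was lower than in animals 223 and 265. Replication and mitosis genes had the same median difference of 2.14 log2 in animal 235.

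Markers of other cells stood high in both animals. In animal 64, 8 of 8 measured genes of an erythroid precursor list lay at least 1 log2 up, with a median difference of 6.32, and their summed level was 77.8, against 27.4 to 48.5 in the 48 others. Car1, the carbonic anhydrase of red cell precursors, was at 12.65 in animal 64 and between 3.10 and 7.25 in the 48, and Klf1, the erythroid transcription factor, was at 8.32 and between 2.46 and 3.64. Of the granulocyte precursor list 6 of 12 genes were up in animal 64, with a summed level of 53 against 37.4 to 59.4. No gene of the macrophage list was up. Of 12 hepatocyte genes 8 were at least 1 log2 down in animal 64, among them Hnf4a at 8.02 with a median of 10.09 in the 48. Of all genes 7% were at least 1 log2 down in animal 64. The summed level of the 12 hepatocyte genes was 109.9 against 125.6 to 135.2. In animal 235 the macrophage list led, with 8 of 10 genes up and a summed level of 92.6 against 59.0 to 78.9. Cd68, a macrophage marker, was at 10.85 in animal 235 and at most 8.54 in the 48. In the same liver 5 of 9 T and NK cell genes and 4 of 8 erythroid genes were up, against 6.09% of all genes. Of 12 hepatocyte genes 6 were down in animal 235, against 3.96% of all genes. The part of these cells in the cell cycle signals was not tested.

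Other genes of the same pathways were high with the members in animal 64. At least 1 log2 above the 48-liver median were 26 of 27 further replication genes, 33 of 34 further mitosis genes and 11 of 12 G1 regulators, against 8.66% of all genes. Fen1, the flap nuclease of lagging strand synthesis, was the replication exception, at 3.24 in animal 64 and 3.25 at the median. Both values lie under the median level of 3.61 over all genes. Among the G1 regulators, Ccnd2 was the exception at 5.2 with a median of 5.73, whereas Ccnd3 was at 7.35, above its highest value of 5.72 in the 48. The D cyclins thus differed in direction, with D1 low, D2 within the range of the others and D3 high. In animal 235 Ccnd2 was at 7.78 and Ccnd3 at 5.93, both above the 48. Of 18 cell cycle inhibitors 10 were up and 2 down in animal 64, where 8.66% and 7% of all genes were. Rb1, the retinoblastoma protein gene, was at 10.03 in animal 64 and at most 7.55 in the 48, while Cdkn1a, which encodes p21, was at 8.18 and inside the range of 5.09 to 9.43.

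Animals 84 and 87 did not share the pattern. Against the median of the 46 livers without all 4 of these animals, animal 84 had 0 members at least 1 log2 up and 3 down, where 4.07% and 2.3% of all genes were. Animal 87 had 2 up and 1 down, against 3.05% and 1.3% of all genes, and 3 members above all 46, against 5.54%. Those up in animal 87 were Mcm6 at 5.50 and Rrm2 at 5.71, and Ccnd1 at 6.78 was down.

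Among the other 48 livers the cell cycle genes were mostly flat, and a few livers were raised by smaller amounts. Of the 34 members 24, and of the 14 mitosis genes 6, had a median level at or above the all-gene median of 3.61. Without detection calls, low values of these genes could not be told apart from signal near the background. No member lay 1 log2 above the 48-liver median in 38 livers, exactly 1 did in 4 livers, and at least 2 did in 6 livers. These 6 were animal 161 with 11 members (2.8% of all genes), animal 223 with 10 (0.185%), animals 10 and 265 with 8 each (2.86% and 0.194%), animal 257 with 6 (1.01%) and animal 87 with 2 (2.97%). Below the median by at least 1 log2 were 1 member in animal 87 (1.23% of all genes) and 1 in animal 257 (0.482%), which was Ccnd1 in both, and 0 in animals 161 (0.505%), 223 (0.0451%), 10 (0.437%) and 265 (0.0676%). In animals 223 and 265 the members made up a large share of a short list, 10 of 41 genes in animal 223 and 8 of 43 in animal 265. In animal 223, Prc1, which bundles spindle microtubules, was at 4.90, the highest of the 48, and in animal 265, Plk1, a mitotic kinase, was at 5.25, also the highest of the 48. The median levels of both genes in the 48 were 3.13 and 3.76.

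The raised livers differed in the balance of mitosis and replication genes. In animal 223 the 14 mitosis genes stood a median of 1.0 log2 above the 48-liver median and the 9 replication genes 0.20. In animal 161 these medians were 1.03 and 0.56, and in animal 265 they were 0.94 and 0.50. Animal 257 was nearly even with 0.57 and 0.65, as was animal 10 with 0.70 and 0.52. Beyond the raised livers, mitosis genes led in animal 284, with 0.37 for mitosis and -0.16 for replication, a wider gap than in animals 161 and 265. Replication genes led in animals 149 and 200, with mitosis at -0.02 and 0.04 and replication at 0.47 and 0.46. In animal 200, Mcm3, a helicase subunit, was at 4.96, the highest of the 48, with Mki67 at 5.44, next to the median of 5.38. Of the 48 livers 26 had the mitosis median above the replication median and 22 the reverse. In animals 64 and 235 the medians of both classes were close, with mitosis at 4.23 and replication at 4.38 in animal 64 and both at 2.14 in animal 235.

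**Figure D2:**
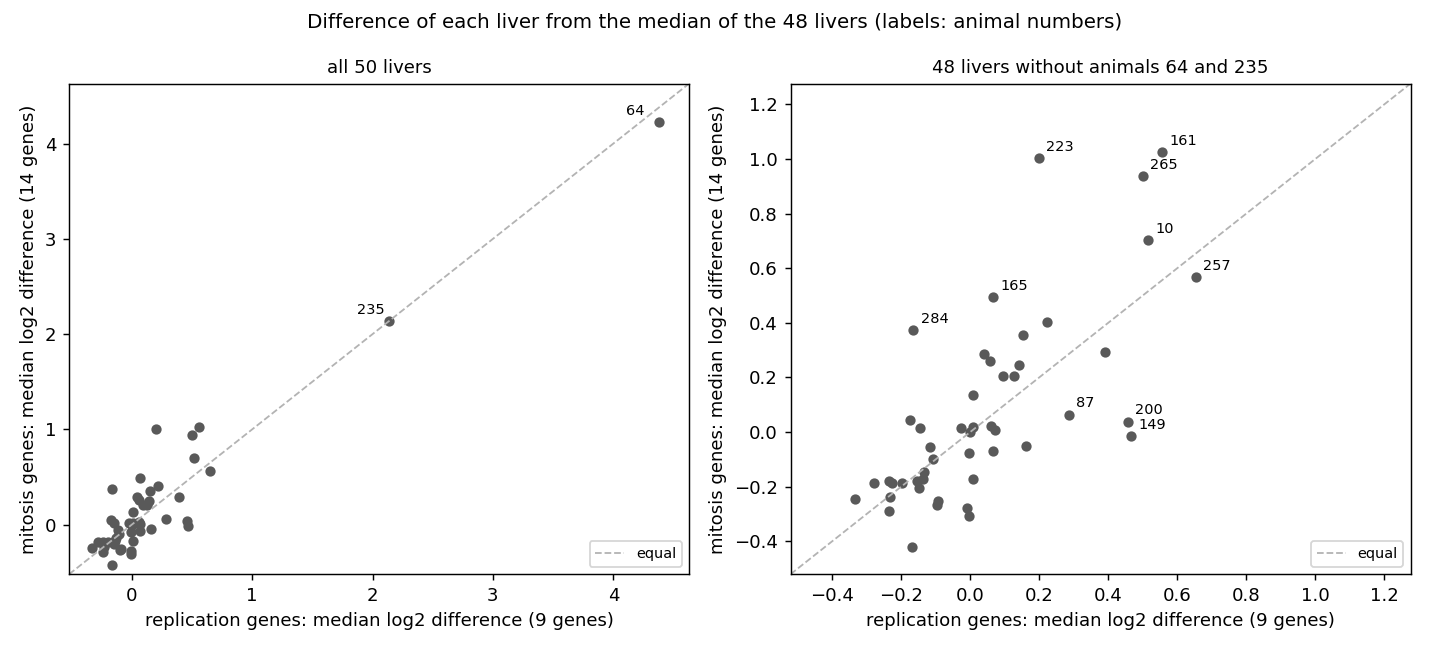
Median log2 difference of the 14 mitosis genes (vertical axis) and of the 9 replication genes (horizontal axis) from the 48-liver median, 1 point per liver, for all 50 livers (left) and the 48 without animals 64 and 235 (right), with the line of equality dashed. Animals 64 and 235 lie near the line at 4.38 and 2.14 for replication, and in the right panel animals 223, 161 and 265 lie above the line while 149 and 200 lie below it.

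The raised livers also differed in their cell type markers. Animal 161 had 8 of 10 mammary epithelium genes up, with a summed level of 74.5 against a median of 29.3 over the 50 livers, and 8 of 12 granulocyte precursor genes. Both of these lists hold Ltf, so their counts are not independent. In the same liver 3 of 6 cholangiocyte genes were up, with a median difference of 1.15. Animal 10 had 7 of 12 granulocyte precursor genes, 6 of 9 B cell and plasma cell genes and 4 of 9 T and NK cell genes up. Animal 257 had 6 of 8 erythroid genes up, with the second highest summed level of 48.5, and animal 87 had 7 of 9 T and NK cell genes up. In animals 223 and 265 no gene of the mammary, B cell or T and NK cell lists was up. Animal 223 had 1 erythroid and 1 granulocyte gene up and no macrophage gene, and animal 265 had 1 macrophage gene up and none of the erythroid or granulocyte lists. Their 12 hepatocyte genes summed to 131.3 and 132.8, inside the range of the 48. The part of these markers in the cell cycle signals was not tested.

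**Figure D3:**
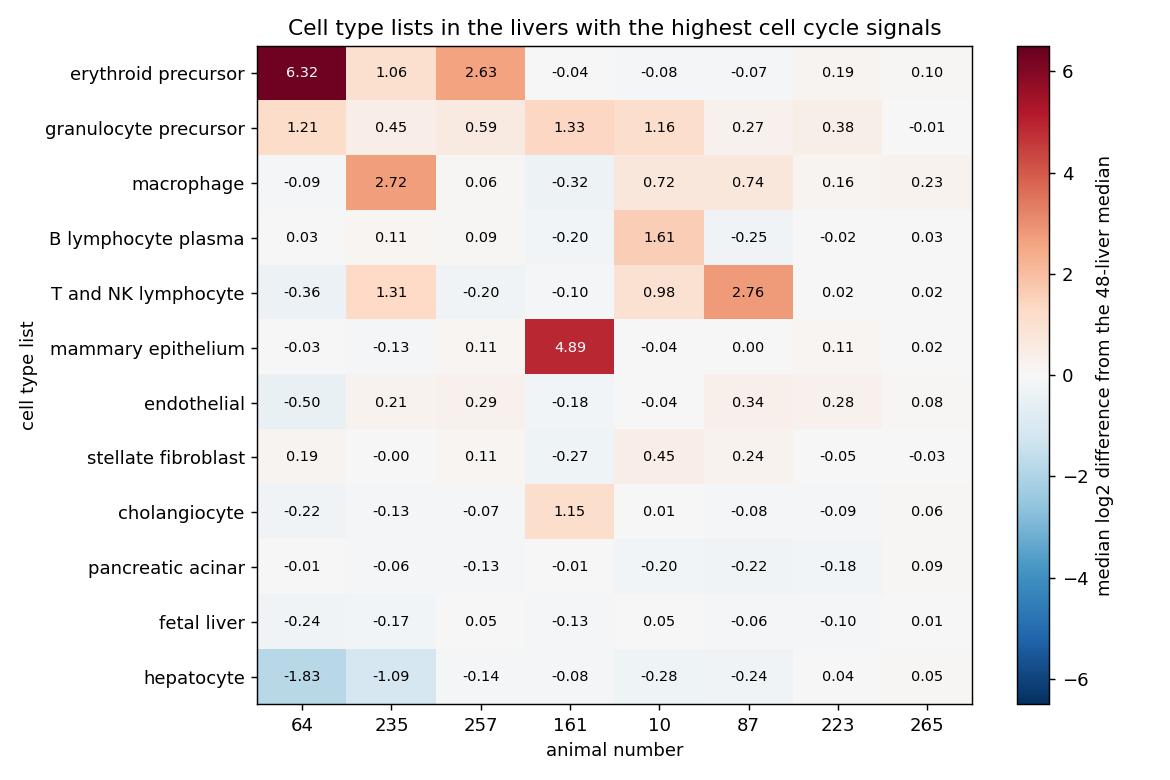
Median log2 difference from the 48-liver median of 12 cell type lists (rows) in the 8 livers with at least 2 members 1 log2 up (columns, animal numbers), with the value printed in each cell. The erythroid list is highest in animal 64 at 6.32, the macrophage list in animal 235 at 2.72, the mammary list in animal 161 at 4.89, and the columns of animals 223 and 265 stay within 0.38 of zero.

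Over mice most members varied together, and the genes of mitosis did so more tightly than those of replication once animals 64 and 235 were left out. The mean pairwise Pearson r over 48 livers was 0.730 among the 14 mitosis genes (91 pairs), 0.488 among the 9 replication genes (36 pairs) and 0.467 between both classes (126 pairs). Over all 50 livers the same means were 0.914, 0.901 and 0.871. With ranks, Spearman's rho over 48 livers averaged 0.672, 0.425 and 0.431. No pair was negative in any of these 3 groups of pairs. The pairs share genes and livers, so the means are descriptions without a test. The median SD over the 48 livers was 0.42 for the mitosis genes and 0.32 for the replication genes. The part of this narrower spread in the lower r was not tested.

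Within replication the Mcm genes other than Mcm7 held together best. The mean r of a gene with the other replication members over 48 livers was 0.596 for Mcm4, 0.585 for Mcm2 and 0.555 for Mcm5, against 0.324 for Cdc6, 0.423 for Pcna and 0.428 for Mcm7. Among the mitosis genes Tpx2, a spindle assembly factor, and Prc1 had the highest mean r with the others of their class at 0.795 and 0.794, and Birc5, which encodes survivin, the lowest at 0.572. Cyclins Ccna2 and Ccnb2 and Cdk1 sat with mitosis, with a mean r of 0.794, 0.790 and 0.786 to the mitosis genes and of 0.529, 0.425 and 0.458 to the replication genes. Foxm1 had 0.409 to the mitosis genes and 0.227 to the replication genes, and E2f1 had 0.462 and 0.334. The members least like the others over the 48 livers were Ccnd1, E2f8 and Tk1: Ccnd1 averaged 0.155 with the mitosis genes, E2f8 0.261 and Tk1 -0.047.

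**Figure D4:**
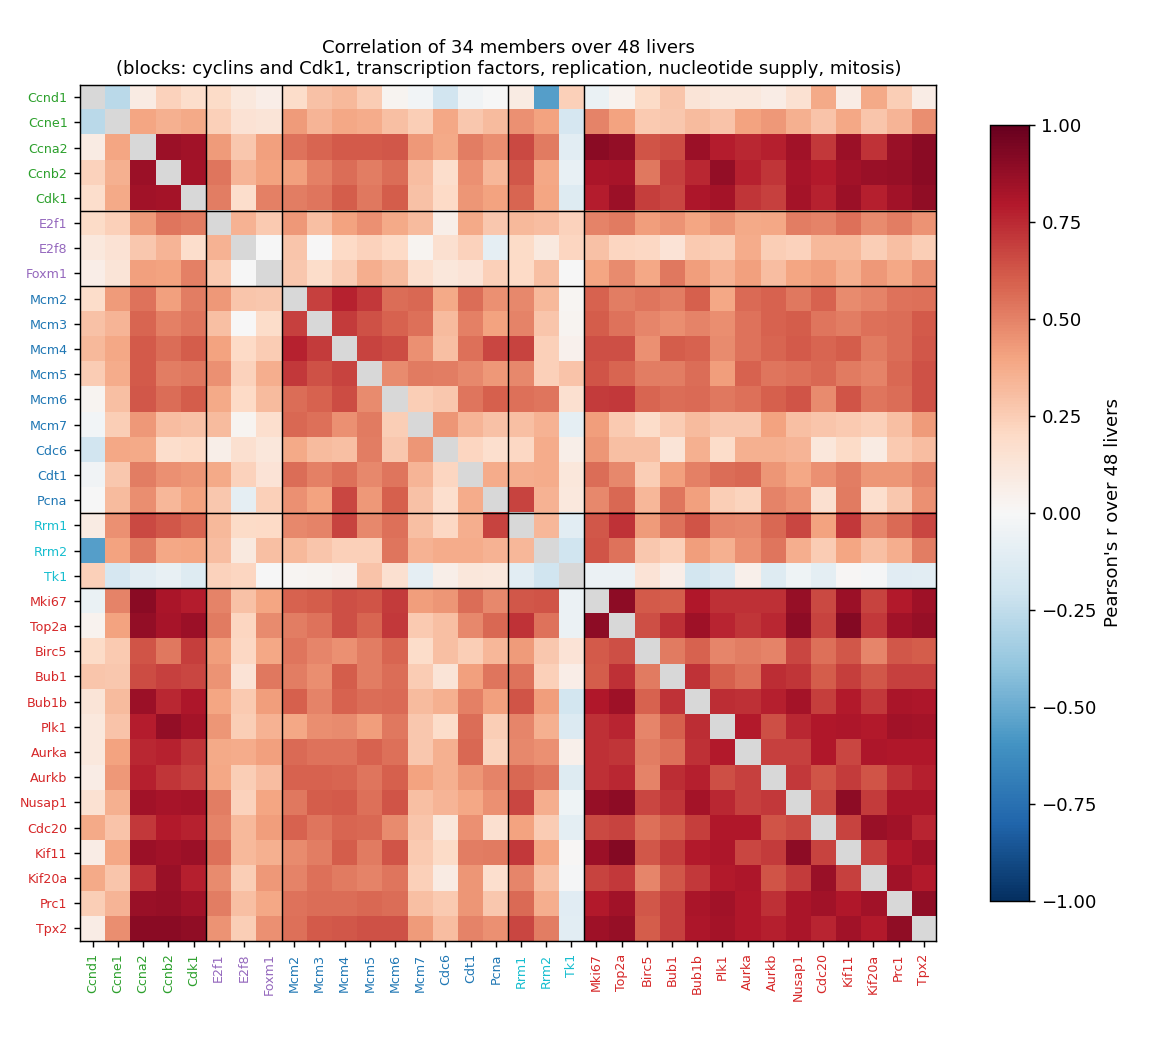
Pearson's r between all pairs of the 34 members over the 48 livers without animals 64 and 235, with black lines between the classes and the diagonal in grey. The mitosis block averages 0.730 and the replication block 0.488, and the rows of Ccnd1, E2f8 and Tk1 stay pale or blue.

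Of 10 single relations computed between members and Cdkn1a, the 5 among proliferation genes held in both sets of livers. Mki67 followed Top2a with r = 0.958 over 50 livers and 0.896 over 48, and rho was 0.875 and 0.859. Mki67 followed Mcm6 with r = 0.894 and 0.702, and rho was 0.767 and 0.736. Mcm6 followed its partner subunit Mcm5 with r = 0.881 and 0.474, Pcna with r = 0.902 and 0.595, and Rrm2, the small subunit of ribonucleotide reductase, with r = 0.805 and 0.537. Each of these 5 had a permutation p of 1e-05 over 50 livers, the smallest that 100000 permutations give, and an adjusted p of 2e-05 over the 10 relations (two-sided). Animals 64 and 235 were the livers farthest from the median in all 5, so the 48-liver values are also those without the 2 extreme livers. The largest adjusted permutation p of the 5 over 48 livers was 0.00124, for Mcm6 with Mcm5. Within 4 stretches of animal numbers over 50 livers, of 8 to 16 livers, all 5 relations were positive. Their r ran from 0.345 for Mcm6 with Mcm5 to 0.993 for Mcm6 with Pcna. Animal 64 was in the first stretch and animal 235 in the third. Without both animals all 5 stayed positive in each stretch, with r from 0.345 to 0.941. In the first stretch Mcm6 with Pcna then fell to 0.828, and Mcm6 with Mcm5 fell from 0.980 to 0.678. Without animals 64, 84, 87 and 235 the r of Mcm6 with Rrm2 was 0.379 over 46 livers and -0.436 in the second stretch, whereas without animals 64, 87, 89, 235 and 257 it was 0.544 over 45 livers.

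A fit of every gene on the Mki67 signal showed which members moved with it. Slopes are log2 change per log2 unit of Mki67, with limma's moderated test and Benjamini-Hochberg adjustment over 22179 genes. Over 50 livers 32 of 33 members were higher with Mki67, against 13.2% of all genes, and Ccnd1 did not pass. Over 48 livers 27 of 33 were higher, against 1.42% of all genes. The median slope of the members over the 48 was 0.29, against -0.0041 for all genes. The steepest over 48 livers were Ccna2 with 0.79 ± 0.05 (SE, adjusted p = 2.62e-15), Ccnb2 with 0.71 ± 0.07 (adjusted p = 4.61e-10) and Top2a with 0.69 ± 0.05 (adjusted p = 5.52e-15). Among the replication genes, Mcm6 had a slope of 0.45 ± 0.07 (adjusted p = 4.96e-06), Mcm2 one of 0.26 ± 0.05 (adjusted p = 0.00127) and Pcna one of 0.16 ± 0.04 (adjusted p = 0.0353). Mitosis genes such as Birc5 with 0.17 and Bub1 with 0.17 were as flat as Pcna.

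The 6 members that did not pass over 48 livers were Ccnd1, Tk1, E2f8, Foxm1, Cdc6 and Mcm7. Cdc6 had a slope of 0.13 with an adjusted p of 0.0615, Mcm7 one of 0.12 with 0.102, Foxm1 one of 0.08 with 0.134, and E2f8 one of 0.21 with 0.324. Tk1 had a slope of -0.03 over 48 livers (adjusted p = 0.925), against 0.19 over 50 (adjusted p = 0.0108), so its relation rested on animals 64 and 235. When any 1 further liver was left out, 24 to 28 members passed. Without animal 84, 27 members passed and 514 of all genes were higher, against 316 over the 48. Ccne1 lost its call in 2 of the 48 fits (largest adjusted p = 0.340, without animal 257), E2f1 in 2 (0.193, without animal 10) and Pcna in 6 (0.171, without animal 10). The other 24 of the 27 stayed past the threshold in all 48 of these fits.

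A fit on Mcm6 in place of Mki67 gave 32 of 33 members higher over 50 livers, against 14.5% of all genes, and 25 of 33 over 48, against 1.63%. Mki67 itself had a slope of 1.09 ± 0.16 over 48 livers (adjusted p = 4.95e-05), Top2a one of 0.85 ± 0.12 (adjusted p = 4.22e-05) and Mcm4 one of 0.57 ± 0.10 (adjusted p = 0.00074). Not passing over 48 livers were Ccnd1, Ccne1, Cdc6, E2f1, E2f8, Foxm1, Mcm7 and Tk1. Without animal 87, which had the highest Mcm6 of the 48 at 5.50, 23 members still passed, while all genes called higher fell to 101 from 362. Cdt1 and Rrm2 were the members lost (adjusted p = 0.153 and 0.224). Without animal 84 instead, 25 members passed and 532 of all genes were higher. With the mean levels of the erythroid, granulocyte and macrophage lists in the fit, 29 of 33 members passed over 50 livers but 3 of 33 over 48 (Mki67, Top2a and Mcm4), where 12 of all genes passed and 27 members had an unadjusted p under 0.05. The same terms in the Mki67 fit left 19 members over 50 livers and 21 over 48. For all genes, the number passing with these terms is given here for the Mcm6 fit over 48 livers alone.

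With both index genes in 1 fit, mitosis genes and the S to M cyclins passed on Mki67, and no member passed on Mcm6 over 48 livers. Of 32 members 13 were higher with Mki67 beside Mcm6 over the 48, against 0.329% of all genes, and 0 lower, against 0.0496%. They were Ccna2, Ccnb2, Cdk1 and 10 mitosis genes. Ccna2 had a slope of 0.80 ± 0.08 (adjusted p = 8.8e-10) and Top2a one of 0.61 ± 0.07 (adjusted p = 7.91e-08). None of the 8 replication genes tested passed, the closest being Mcm5 with 0.27 ± 0.07 (adjusted p = 0.105). The difference in slope between the classes was not tested. Over the 48 livers Mcm6 had a mean r of 0.590 with the mitosis genes and of 0.490 with the other replication genes. Mki67, itself a mitosis gene, had a mean r of 0.755 with the others of its class. The part of this choice of index genes in the counts was not tested. Over 50 livers 11 of 32 members were higher, against 0.108% of all genes, and 0 lower, against 0.00451%. In ranks over the 50 livers 0 passed, with 17 at an unadjusted p under 0.05. In the opposite direction 16 of 32 members were higher with Mcm6 beside Mki67 over 50 livers, against 1.78% of all genes. Without animal 64 only Pcna, 1 of 32, passed, and 0 over the 48 (0.0631% of all genes), where 4 members had an unadjusted p under 0.05. Pcna, with 0.26, and Mcm4, with 0.34, had the largest slopes on Mcm6 among the replication genes in the 48, neither past the threshold.

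**Figure D5:**
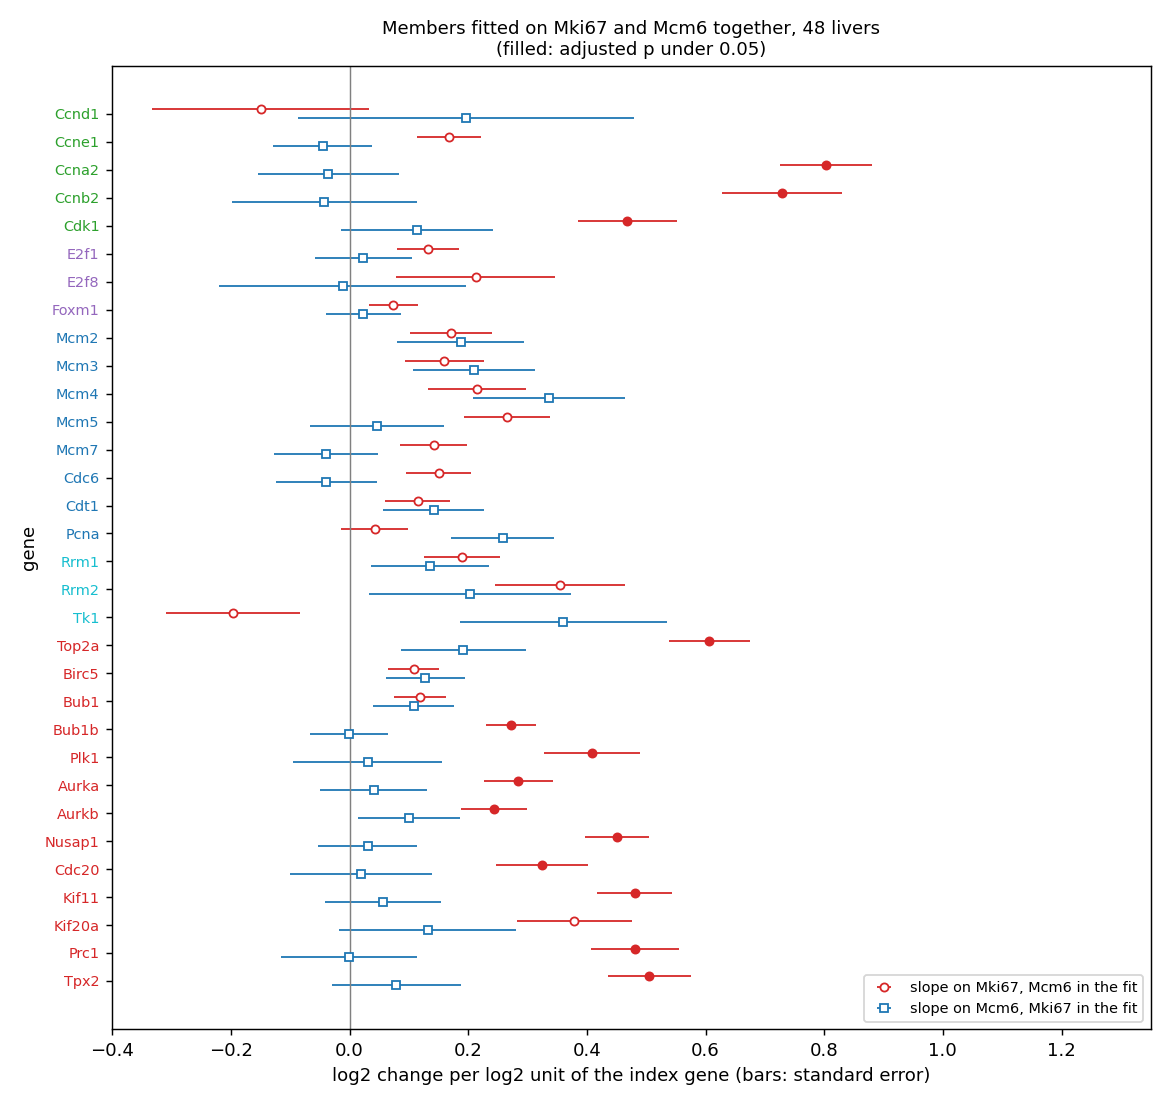
Slopes of 32 members on Mki67 with Mcm6 in the fit (red circles) and on Mcm6 with Mki67 in the fit (blue squares) over 48 livers, in log2 per log2 unit with standard errors as bars, and filled symbols for an adjusted p under 0.05. The 13 filled symbols are all red and belong to Ccna2, Ccnb2, Cdk1 and 10 mitosis genes.

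Among further genes of the same pathways, most mitosis genes and a minority of replication genes passed. With Mki67 over 48 livers 30 of 34 further mitosis genes were higher and 9 of 27 further replication genes, against 1.42% of all genes; of the 9 replication members 7 had passed. Dlgap5, a spindle protein, had a slope of 0.33 ± 0.03 (adjusted p = 6.01e-11) and Ube2c, the ubiquitin enzyme of the anaphase ligase, one of 0.48 ± 0.05 (adjusted p = 6.4e-10). Dtl, the adaptor that sends Cdt1 for degradation, led the replication genes with 0.30 ± 0.04 (adjusted p = 1e-07), followed by Ticrr and Lig1. Mcm10, Gins1 and Fen1 had negative slopes that did not pass. Leaving out animal 161 gave the lowest counts of the leave-one-out fits, 26 mitosis and 6 replication genes, and the highest were 30 and 11. Of 12 G1 regulators E2f2 and Cdk4 were higher with Mki67, and of 18 inhibitors Rbl1 and Cdkn2c were. Leaving out 1 further liver brought the G1 regulators to 1 gene in 37 of 48 fits and the inhibitors to 1 gene in 15.

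The genes outside the list most like Mki67 by Pearson's r over 48 livers were Dlgap5 at 0.849, Ube2c at 0.820, Anln at 0.819, Nuf2 at 0.818 and Knl1 at 0.812, followed by Cenpf, Kntc1, Cenpe, H2ac10 and Diaph3. Of the 100 genes most like Mki67, 23 were members, over 50 livers and over 48. The genes most like Mcm6 over 48 livers were Smc4, a condensin subunit, at 0.749, Kntc1 at 0.694, Hells at 0.692, Atad2 at 0.691 and Trim59 at 0.682, followed by Knl1, Mms22l, Dbf4, Racgap1 and Ptprc. Ptprc, the CD45 gene of white blood cells, had an r of 0.623 with Mcm6. Members made up 19 of the 100 genes most like Mcm6.

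Over the 48 livers erythroid and granulocyte precursor genes passed with Mki67, and T and NK cell genes with Mcm6. Their counts depended on 1 or 2 livers. Of the 10 macrophage genes 1 passed with Mki67 and 2 with Mcm6. Of all genes 1.42% were higher with Mki67 and 1.63% with Mcm6. With Mki67 no gene of the 9 in the T and NK cell list or of the 9 in the B cell list passed. With Mcm6 none of the 8 erythroid, 12 granulocyte precursor and 9 B cell genes did. With Mki67, 4 of 8 erythroid genes were higher (Slc4a1, Ermap, Rhag and Hemgn), and without animal 257 there were 0. Of the granulocyte precursor list 7 of 12 were higher; without animal 161 there was 1, and without animal 10 there were 2. With Mcm6, 6 of 9 T and NK cell genes were higher, and without animal 87 there were 0. Summed over the list, the erythroid levels ran from 27.4 to 77.8 over the 50 livers, the granulocyte levels from 37.4 to 59.4 and the T and NK levels from 26.9 to 52.5. No hepatocyte gene of 12 passed with either index over 48 livers, whereas 8 of 12 were lower with Mki67 over all 50, against 10.9% of all genes. Without animal 257, 25 of 33 members passed with Mki67, where 293 of all genes were higher. Without animal 161 these counts were 25 and 243, and without animal 10 they were 24 and 204. With Mcm6 and without animal 87, 23 members passed, where 101 of all genes were higher. The part of blood cells in the relations of the members was not tested.

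Cyclin D1 stood apart from the other members in its level and its relations. Ccnd1 ran from 6.02 in animal 257 to 9.25 in animal 301 over the 48 livers, with a median of 8.29. Its r with Mki67 was -0.241 over 50 livers (permutation p = 0.0891) and -0.066 over 48 (p = 0.656). Its r with Ccne1 was -0.398 over 50 livers (p = 0.0123), but rho was -0.033, and r was 0.063 over 46 livers without animals 64, 235, 257 and 89. The negative value therefore rested on those livers.

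Ccnd1 was lower in mice with a higher signal of Cdkn1a, the p53 target p21 that inhibits cyclin-dependent kinases. Their r was -0.429 over 50 livers (permutation p = 0.00207, 0.00345 adjusted over 10 relations), with rho = -0.406, and -0.451 over 48 livers (p = 0.00135). The r within the 4 stretches of animal numbers was -0.337, -0.732, 0.038 and -0.657, so the third, animals 137 to 235, did not share it. In the fit across all genes the slope of Ccnd1 on Cdkn1a was -0.32 ± 0.09 over 50 livers (adjusted p = 0.104) and -0.31 ± 0.09 over 48 (adjusted p = 0.068), which does not pass. It passed over 48 livers (adjusted p = 0.0379) where only genes at or above the median level were tested. Cdkn1a was highest in animals 87, 89 and 257, at 9.43, 9.35 and 9.24, and these 3 were also low in Ccnd1, at 6.78, 6.24 and 6.02. Without these 3 and animals 64 and 235, r was -0.231 over 45 livers (p = 0.128).

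In the fit on Cdkn1a no member passed over 50 livers and Rrm2 passed over 48. Over 50 livers 0 of 34 members passed, with limma's adjusted p under 0.05, against 0.194% of all genes higher and 0.32% lower, and 2 had an unadjusted p under 0.05, Rrm2 upward and Ccnd1 downward. Over 48 livers 1 of 34 was higher, against 0.383% of all genes: Rrm2, with a slope of 0.31 ± 0.06 (adjusted p = 0.00387). It passed in all 48 fits that left out 1 further liver, with an adjusted p of at most 0.0186. Rrm2 was the member with 2 probe sets, and with their mean its slope over 50 livers was 0.18 ± 0.05 (adjusted p = 0.0961), against 0.36 ± 0.10 (adjusted p = 0.0632) for the probe set used. Over 48 livers it did not pass with ranks (0.0986), with the blood and macrophage lists in the fit (0.0947), or without animals 87, 89 and 257 (slope 0.16, adjusted p = 0.226). These 3 livers held the highest Rrm2 of the 48, at 5.71, 5.14 and 5.52 against a median of 3.72, and Ccnd1 and Rrm2 had an r of -0.551 over 48 livers and of -0.068 without them. Mki67 and Pcna showed little relation to Cdkn1a, with r = 0.252 (permutation p = 0.0771) and 0.092 (p = 0.523) over 50 livers. With Ccng1, another p53 target, as the index in place of Cdkn1a, 33 of 34 members passed over 50 livers and 0 over 48. The share of all genes that passed with Ccng1 is not given here, so these counts are not read as particular to the members.

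The animal number was the only ordering of the mice that the labels give, and no member followed it. With limma 0 of 34 passed over 50 livers, against 1.28% of all genes higher and 2.24% lower, and 0 had an unadjusted p under 0.05. Over 48 livers 0 of 34 passed, against 1.92% and 3.04% of all genes, and 2 had an unadjusted p under 0.05. With the mean levels of the 3 blood and macrophage lists in the fit, 2 members, Pcna and Rrm1, were lower with the animal number in both sets of livers. The share of all genes that passed with these lists in the fit is not given here.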

How the data were processed

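RNA from 50 livers was hybridised to an Affymetrix whole transcript array. The deposited values are log2 signals. The submitters' processing notes name RMA, which corrects background, quantile-normalises arrays and summarises probes, and version 1.4.1 of the Expression Console software. Their settings and the genome build are not given in the sources used here. Scanner files and detection calls were not used here, so array precision is limited by the number of arrays. All 50 value columns were matched to mice by label, and 0 were unused.

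Of 41345 probe sets, 23521 carried 1 gene symbol in the platform annotation, 1814 several and 16010 none. Probe sets with 1 symbol gave 22180 genes, each read from the probe set with the highest median. No value was filtered. Every gene was fitted on the level of Mki67, Mcm6, both together, Cdkn1a, or the animal number in limma (version 3.58.1, R 4.3.3; moderated test with a mean-variance trend), with Benjamini-Hochberg adjustment over all genes and a threshold of 0.05. The 10 relations between single genes were tested with 100000 permutations in scipy 1.17.1. Single livers were compared with the median of the others, without a test. P-values test a slope over mice in limma and a correlation over mice in the permutations. With 1 array per mouse, spread between mice and between arrays cannot be told apart in them.

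The Mki67 fit was tested on simulated data of 22179 genes. In these simulated data it recovered 92% of genes with a slope of 0.2 over 50 livers and 58% over 48. At a slope of 0.1 it recovered 60% over 50 livers and 18% over 48. False calls made up 3.62% and 4.35% of the calls. Both simulations took the noise of each gene from its SD over the 48 livers. The 50-liver rates therefore leave out the wider spread over all 50. Whether these rates hold for the measured livers, where many genes moved together, was not tested.

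The members and lists were chosen with earlier results of these data known. Genes named in the text are all members, the up to 3 genes of each other list with the highest and the lowest r with Mki67 over 48 livers, the 10 genes outside the list most like Mki67 or Mcm6, Cdkn1a and Ccng1. Cd68, Ccnd2, Ccnd3, Rb1 and Ermap were named after their values were seen.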

Additional observations from a re-analysis of the deposited data

How the results depend on the processing

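The settings without single named animals, with the blood and macrophage lists in the fit, and all others without animals 64 and 235 beyond the plain 48-liver fit were chosen after seeing the data. Of the slopes of members on Mki67 or Mcm6 recomputed under alternatives, 460 kept their direction and side of the threshold, 39 no longer passed and 7 reversed. The other fits were not in this count. Among the alternatives, the mean of all probe sets changed the values of Rrm2 alone among the members. Centring moved the arrays little, as their medians lay between 3.27 and 3.34. Members passing with Mki67 (32 of 33) numbered 19 with the lists in the fit and 21 with the lists over 48 livers. They numbered 20 in ranks over 48 livers and 19 of 23 above the median level over 48. For the settings of this paragraph the share of all genes that passed is not given beside the counts. These counts are therefore not read as particular to the members. With Mcm6 (32 of 33) the same settings over 48 livers gave 3, 20 and 17, and Mcm5 as the index gave 15. With Cdkn1a (0 of 34) 1 member passed over 48 livers, also without animals 84 and 87, without animal 64 alone, without 64, 235 and any of 161, 87 or 257, with the stretch of animal numbers in the fit, with centred arrays, and over 50 livers above the median level. Over 48 livers above the median level 2 passed. With Ccng1 as the index over 50 livers 33 passed, and the share of all genes in that fit is not given here. With Mki67 beside Mcm6 (11 of 32) 5 passed above the median level, 5 with the lists, 0 in ranks over 50 and over 48 livers, and 7 above the median level over 48. With Mcm6 beside Mki67 (16 of 32) 10 passed above the median level, 6 with the stretch in the fit, 1 without animal 64, and 0 in ranks and under every setting run without animals 64 and 235. With the animal number 2 passed with the lists in the fit, over 50 and over 48 livers. Leaving out 1 further liver over the 48 gave 24 to 28 members with Mki67, 23 to 25 with Mcm6, 1 to 2 with Cdkn1a (Ccnd1 joined Rrm2 without animals 60, 170 or 187), 11 to 14 with Mki67 beside Mcm6 and 0 to 0 with Mcm6 beside Mki67.

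The mean pairwise r within replication, within mitosis and between them was 0.488, 0.730 and 0.467 over 48 livers. It was 0.503, 0.730 and 0.482 over 46, and 0.458, 0.710 and 0.423 without animals 64, 161 and 235. Spearman's rho averaged 0.491, 0.710 and 0.496 over 50 livers and 0.425, 0.672 and 0.431 over 48. Among the single relations, Ccnd1 with Ccne1 reversed to 0.20 in the third stretch of animal numbers and to 0.128 without animals 64, 87, 89, 235 and 257, where Ccnd1 with Mki67 reversed to 0.165. Cdkn1a with Pcna reversed to -0.036 over 48 livers, -0.128 over 46, -0.047 without animals 64, 161 and 235, and -0.190 without animals 64, 87, 89, 235 and 257. Cdkn1a with Ccnd1 was 0.038 in the third stretch. The slope of Ccnd1 on Mki67 reversed to 0.12 in ranks. That of Tk1 on Mki67 reversed to -0.034 over 48 livers, to -0.089 over 46 and to -0.014 in ranks. That of Ccnd1 on Mcm6 reversed to 0.034 over 48 livers, to 0.26 over 46 and to 0.18 in ranks. The cause of these changes was not tested.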
